A study of Danio rerio with 6 samples.

Results

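At 7 days after fertilization myelin is being formed in the zebrafish larva. For description in whole animals exposed to dissolved nucleotides, 8 genes of that process were listed: mbpa, plp1a, plp1b, mpz, mag, olig2, sox10 and erbb3b. Members were taken as the rows of the deposited count table that carry these symbols, which gave 7 of the 14612 genes in the table. No row carried mbpa or its NCBI gene number, and that gene was not analysed here. Total RNA of whole animals (Danio rerio) of that age was sequenced, with 33 to 35 of them pooled per sample. One arm, called nucleotide here, was held in embryo medium with dissolved nucleotides at 10 µM (3 pools), and the other, called control, in embryo medium with none added (3 pools). The labels name neither the nucleotides nor the strain, the length of exposure or a genotype. In the headers of the deposited table the exposed libraries carry the word CarbMonoxide in place of nucleotide. Columns were matched to samples by library name, and only the labels give nucleotides as the agent.

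Myelin is the stack of membrane that oligodendrocytes in the brain and spinal cord, and Schwann cells in peripheral nerves, wrap around axons. The wraps are held together by membrane proteins such as proteolipid protein and myelin protein zero. The transcription factors Olig2 and Sox10 specify and maintain the glia that make it, and the receptor ErbB3 carries the axonal neuregulin signal that guides Schwann cells along nerves. Several of these genes also act elsewhere in the larva: olig2 in motor neuron precursors, and sox10 and erbb3b in neural crest, the source of pigment cells. In whole-animal RNA, fewer cells of a type and less RNA per cell cannot be told apart.

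Differences in these genes between the arms were small. The myelin protein zero gene mpz had a lower level in every nucleotide pool than in any control pool, as did 9.89% of all tested genes. In the fit mpz was 24.1% lower and plp1a 26.2% higher, while mag, olig2 and sox10 had fold changes of 1.02, 0.919 and 0.956. Of the 6 genes with enough counts to be tested, 0 passed an adjusted p of 0.05 in edgeR's quasi-likelihood test, where 0.99% of all 13336 tested genes passed. The plp1a and mpz genes had unadjusted p values of 0.0332 and 0.015, and 14.5% of all tested genes lay under 0.05 before adjustment. DESeq2 also called 0 of the 6, against 3.79% of all genes with an adjusted p. Pools with the same number in the 2 arms deviated together across genes, and with that number as a block in the edgeR fit plp1a rose and mpz fell. That is 1 of 6 in each direction, beside 10.7% of all tested genes higher and 8.38% lower under the same rule. The median of the 6 log2 fold changes was -0.02 without the block, against -0.01 for all tested genes.

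**Figure D1:**
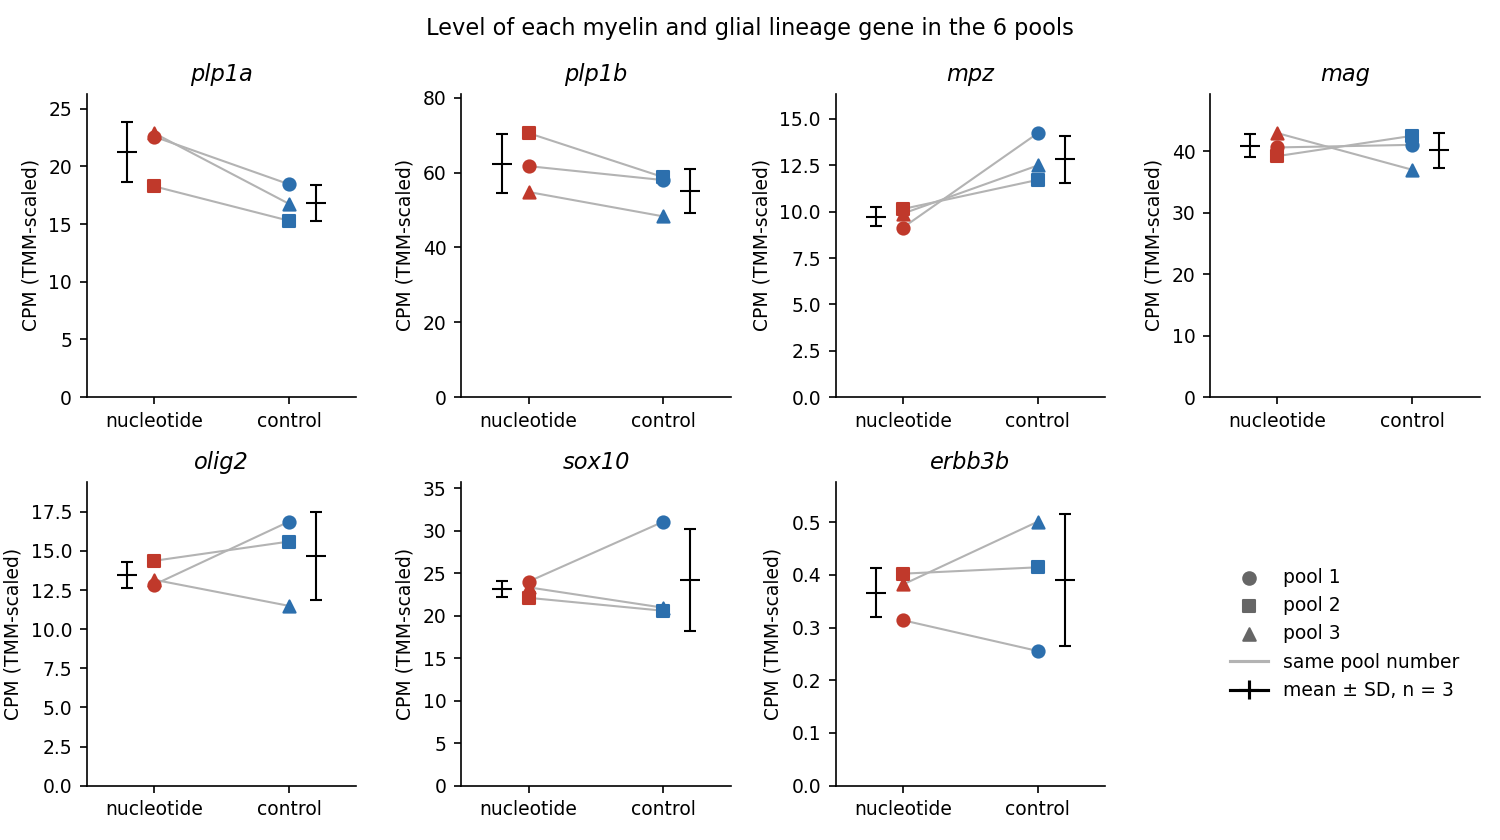
Level of each gene in CPM (TMM-scaled counts, linear axes from 0) in the 3 nucleotide pools (red, left) and the 3 control pools (blue, right); bars give the mean and SD over 3 pools and grey lines join pools with the same number. The 3 mpz values of the nucleotide arm, at 9.14 to 10.1 CPM, lie under all 3 control values, at 11.7 to 14.2 CPM, as for 9.89% of all tested genes. The lines of plp1a and plp1b show a higher level in the nucleotide pool of each number, as for 25.7% of all tested genes.

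Zebrafish carry a pair of genes for proteolipid protein, the main membrane protein of central myelin in mammals. For plp1a (NCBI gene 64264) the counts were 647, 454 and 659 in nucleotide pools 1 to 3 and 433, 295 and 401 in control pools 1 to 3. Scaled for library size by TMM (edgeR's trimmed mean of M values) and given as counts per 1e6 (CPM), these were 22.6, 18.3 and 22.9 CPM in nucleotide pools and 18.4, 15.3 and 16.8 CPM in control pools. Nucleotide pools 1 and 3 stood above every control pool, and nucleotide pool 2 fell within the control range. Pool 2 was the lowest of its arm in both arms, so that the nucleotide pool was higher within each number, by 0.29, 0.26 and 0.45 on the log2 scale. Means were 21.2 ± 2.58 CPM in nucleotide pools and 16.8 ± 1.58 CPM in control pools (SD, n = 3 each), a log2 fold change of 0.34 ± 0.131 (SE; edgeR adjusted p = 0.295), with a 95% interval for the fold of 1.02 to 1.56. With the block the log2 fold change was 0.33 ± 0.0891 (edgeR adjusted p = 0.0227). That call was lost with DESeq2 in place of edgeR (adjusted p = 0.0807), with library totals instead of TMM (edgeR 0.21, adjusted p = 0.108) and without pair 3 (edgeR adjusted p = 0.122).

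The other proteolipid gene, plp1b (368234), had 61.7, 70.6 and 54.8 CPM in nucleotide pools and 58.0, 58.8 and 48.3 CPM in control pools. Here nucleotide pool 2 was the highest of all 6 and the arms overlapped. Within each number the nucleotide pool was again higher, by 0.09, 0.26 and 0.18 on the log2 scale, a direction shared in all 3 pairs by 25.7% of tested genes. The log2 fold change was 0.18 ± 0.125 (SE; edgeR adjusted p = 0.559), with a 95% interval for the fold of 0.928 to 1.38. With the block it was 0.18 ± 0.0652 (edgeR adjusted p = 0.0779), so plp1b passed in neither fit. A sum over the 4 genes for myelin proteins (plp1a, plp1b, mpz and mag) came to 134 ± 3.81 CPM in nucleotide pools and 125 ± 9.10 CPM in control pools (SD, n = 3 each), and the arms overlapped.

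The mpz gene (114417) encodes myelin protein zero, the adhesion protein that joins neighbouring wraps of peripheral myelin in mammals and is also found in the central myelin of fish. Its counts were 262, 252 and 285 in nucleotide pools and 334, 226 and 299 in control pools. After scaling these were 9.14, 10.1 and 9.90 CPM in nucleotide pools and 14.2, 11.7 and 12.5 CPM in control pools. All 3 nucleotide pools lay below all 3 control pools, the one member whose arms did not overlap, as was also the case in this direction for 9.89% of all tested genes. The largest gap within a number was in pair 1, at -0.64 on the log2 scale, where control pool 1 was the highest and nucleotide pool 1 the lowest of the 6. Pairs 2 and 3 stood at -0.21 and -0.34.

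Means of mpz were 9.73 ± 0.521 CPM in nucleotide pools and 12.8 ± 1.29 CPM in control pools (SD, n = 3 each), a log2 fold change of -0.40 ± 0.129 (SE; edgeR adjusted p = 0.214), with a 95% interval for the fold of 0.617 to 0.933. With the block it was -0.40 ± 0.119 (edgeR adjusted p = 0.0364), and DESeq2 with the block gave an adjusted p of 0.112. DESeq2 with the block called 0 of the 6 members, where it called 8.55% of all genes higher and 4.93% lower. Without pair 1 the blocked edgeR value was -0.26 (adjusted p = 0.226), without pair 3 it was -0.43 (0.0885), and without pair 2 it was -0.49 (0.0191). In the authors' deposited table mpz stands at -0.324 with a p-value of 0.0148 and an adjusted p of 0.176, and plp1a at 0.278 with 0.0353 and 0.285. DESeq2 as run here without the block gave -0.397 and 0.338, with p-values of 0.0148 and 0.0354. The deposited fold changes are thus smaller at nearly the same p, and are not directly comparable with those given here.

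The mag gene (474346), for the myelin-associated glycoprotein that sits on the innermost wrap facing the axon, was at about the same level in the arms. It had 40.7, 39.2 and 43.0 CPM in nucleotide pools and 41.1, 42.5 and 37.0 CPM in control pools. The highest and second lowest pools of the 6 were in the nucleotide arm, and the nucleotide pool was higher in 1 of 3 pairs. Its log2 fold change of 0.03 ± 0.0931 (SE; edgeR adjusted p = 0.928) had a 95% interval for the fold of 0.878 to 1.18, the narrowest among the 6 genes on the log2 scale. Under library totals instead of TMM the sign turned, to -0.10 (edgeR adjusted p = 0.607). That scaling moved the median of all tested genes to -0.14.

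**Figure D2:**
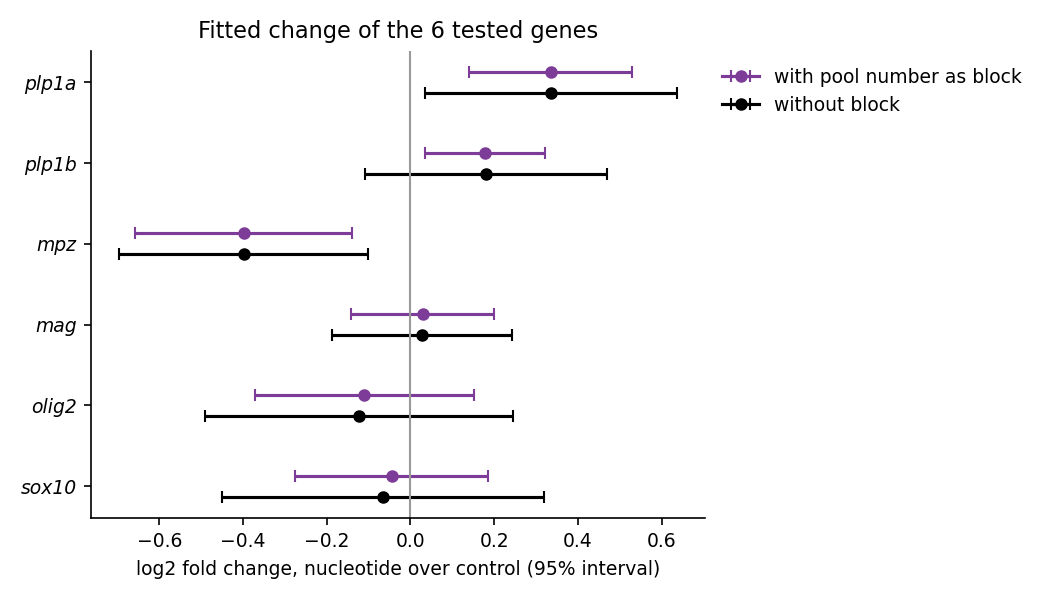
Log2 fold change, nucleotide over control, of the 6 tested genes with its 95% interval from the edgeR fit with the pool number as a block (purple) and without it (black). Intervals of plp1a (0.03 to 0.64) and mpz (-0.70 to -0.10) without the block leave out 0 before any adjustment for the number of genes tested. That of plp1b leaves it out with the block (0.036 to 0.32) and includes it without (-0.11 to 0.47), and those of mag, olig2 and sox10 include it in both fits.

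Since mpz and the proteolipid genes differed in opposite directions, their counts were set against each other within each library, where no scaling enters. These ratios were chosen after the values were seen and are given as a description, with no test. They are ratios of counts, not of molecules, since gene length was not corrected. Counts of mpz over plp1a came to 0.405, 0.555 and 0.432 in nucleotide pools and to 0.771, 0.766 and 0.746 in control pools. The control pools lay within a few hundredths of each other, closer than their own exact 95% binomial intervals, whose bounds ran from 0.640 to 0.914. The interval of nucleotide pool 2 (0.474 to 0.649) overlapped those of control pools 2 and 3, with lower bounds of 0.641 and 0.640. Those of nucleotide pools 1 and 3 (upper bounds 0.468 and 0.498) lay under every control interval. The same ratio over plp1b was 0.148, 0.144 and 0.180 in nucleotide pools and 0.245, 0.199 and 0.259 in control pools, again without overlap. By contrast, plp1a over plp1b overlapped, at 0.366, 0.259 and 0.417 in nucleotide pools and 0.318, 0.260 and 0.347 in control pools. In both arms that ratio was lowest in pool 2 and highest in pool 3. The intervals cover counting error only.

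**Figure D3:**
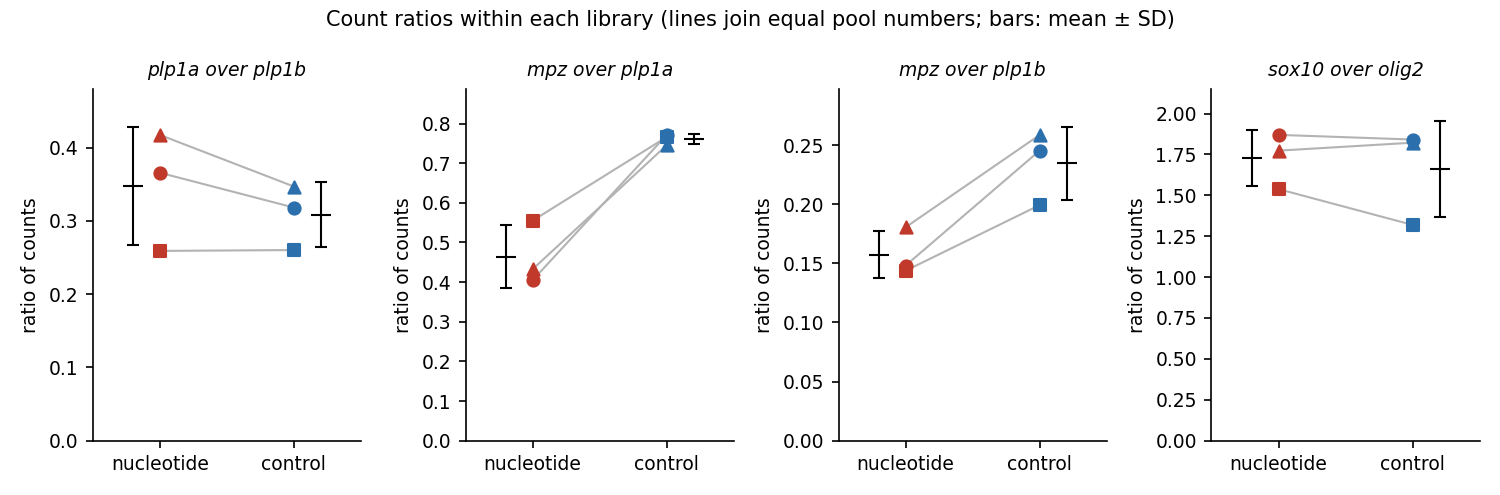
Ratios of counts within each library (linear axes from 0) in nucleotide pools (red, left) and control pools (blue, right); circles, squares and triangles are pools 1, 2 and 3, grey lines join equal numbers, and bars give the mean and SD over 3 pools. The ratio of mpz to plp1a averages 0.464 in nucleotide pools and 0.761 in control pools without overlap, while plp1a to plp1b and sox10 to olig2 overlap between the arms.

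Of the lineage factors, olig2 (325288) encodes the helix-loop-helix protein that directs spinal precursors to motor neurons and then to oligodendrocytes. It had 12.8, 14.4 and 13.2 CPM in nucleotide pools and 16.9, 15.6 and 11.5 CPM in control pools. The nucleotide values all lay inside the control range. The log2 fold change was -0.12 ± 0.160 (SE; edgeR adjusted p = 0.787), with a 95% interval for the fold of 0.712 to 1.19, and the nucleotide pool was lower in 2 of 3 pairs.

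The sox10 gene (140616) encodes the HMG-box factor needed in neural crest and for expression of myelin genes in glia. It had 24.0, 22.1 and 23.3 CPM in nucleotide pools and 31.1, 20.6 and 20.9 CPM in control pools. Control pool 1 stood far above the other 5 pools, with 729 counts. The log2 fold change was -0.06 ± 0.167 (SE; edgeR adjusted p = 0.898), with a 95% interval for the fold of 0.732 to 1.25. Without control pool 1 the sign turned, to 0.16 (edgeR adjusted p = 0.712). Control pool 1 was also the highest of the 6 for olig2 and mpz, and sox10 over olig2 in counts was 1.87, 1.54 and 1.77 in nucleotide pools and 1.84, 1.32 and 1.82 in control pools.

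Spread between pools was set against counting error, and differed from gene to gene. For sox10 the coefficient of variation over pools was 4.19% in nucleotide pools and 24.6% in control pools, where counting at its mean of 589 counts gives 4.12%. The olig2 gene showed 5.99% in nucleotide pools and 19.2% in control pools, against 5.38% from counting. In plp1b, with the most counts among the members, the values were 12.6% in nucleotide pools and 10.6% in control pools, against 2.62% from counting. Taking out what pools of one number shared narrowed the fitted spread: edgeR's biological coefficient of variation of plp1b was 12.6% without the block and 6.04% with it.

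The receptor gene erbb3b (544664) was near the limit of detection. Its counts were 9, 10 and 11 in nucleotide pools and 6, 8 and 12 in control pools, or 30 in all in the nucleotide arm and 26 in the control arm, with exact 95% Poisson intervals of 20.2 to 42.8 and 17.0 to 38.1. With 2 libraries at or above the filter's level of 0.409 CPM, it was left out of the test. Fitted without a filter, its log2 fold change was -0.09 ± 0.434 (SE; edgeR adjusted p = 0.951). The 95% interval for the fold was 0.470 to 1.87, so changes of erbb3b within that range were not excluded. Its paralog erbb3a, named after its values were seen, had 71.0, 48.6 and 61.7 CPM in nucleotide pools and 64.2, 57.5 and 71.4 CPM in control pools (-0.09 on the log2 scale, edgeR adjusted p = 0.837). The partner receptor gene erbb2 and the ligand gene nrg1, also named after their values were seen, had log2 fold changes of -0.08 and -0.07 (edgeR adjusted p of 0.796 and 0.806). Named in the same way, erbb4a had 14.6, 17.2 and 18.8 CPM in nucleotide pools and 20.2, 20.9 and 20.0 CPM in control pools. Its arms did not overlap, as was the case in this direction for 9.89% of all tested genes. The ligand genes nrg2a and nrg2b, also named after their values were seen, were lower in the nucleotide pool of each number, like 3649 of all 13336 tested genes. The list as a whole leaned the other way. Of its 37 tested genes 18 were higher in all 3 pairs and 9 lower, beside 3431 and 3649 of all tested genes. Without overlap of the arms 8 were higher and 1 lower, beside 1529 and 1319. Without the block 0 genes of the ErbB and neuregulin list were called lower.

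Other genes of the same processes were taken from lists of structural, lineage and signalling genes, with the members left out. Calls with the block depended on the scaling and the tool. With library totals the blocked edgeR fit called 5.14% of all tested genes higher and 21.7% lower, and 0 members higher and 1 lower (mpz), so each list's blocked counts are followed by those with library totals and those of DESeq2 with the block. Of 28 tested genes for myelin and node structure 0 passed without the block (0 in DESeq2), with a median log2 fold change of 0.02. Under an unadjusted edgeR p of 0.05 lay 2, beside 14.5% of all tested genes. With the block 2 rose and 4 fell, 21.4% of the list against 19.1% of all tested genes, while library totals gave 0 rises and 8 falls and DESeq2 2 rises and 1 fall. The rises were gpm6aa and gpm6ba, whose proteins belong to the proteolipid family, with blocked log2 fold changes of 0.30 and 0.30 (edgeR adjusted p of 0.0225 and 0.0108). Both calls held in DESeq2 with the block and were lost with library totals (edgeR adjusted p of 0.0668 and 0.0550). The gpm6aa gene alone had 1157 to 1516 CPM in nucleotide pools and 1031 to 1211 CPM in control pools. The whole list, members included, summed to 3091 to 3614 CPM in nucleotide pools and 2953 to 3255 CPM in control pools. Whether the counts of gpm6aa and gpm6ba came from myelinating glia or from other cells was not tested. Among the falls were cntn1a, for an axonal adhesion protein, at -0.45 (edgeR adjusted p = 0.00196 with the block), and cntnap2a, for a protein of the region beside the node, at -0.27 (0.0378). The call of cntn1a held in both other blocked fits and that of cntnap2a was lost in DESeq2 (adjusted p = 0.122).

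The gene mbpb (368319), annotated as myelin basic protein b and named after its values were seen, had 125, 140 and 168 CPM in nucleotide pools and 134, 154 and 168 CPM in control pools. Its log2 fold change was -0.07 ± 0.138 (SE; edgeR adjusted p = 0.869). The claudin k gene cldnk, a marker of myelinating glia in zebrafish that was named in the same way, had 26.9, 19.8 and 26.3 CPM in nucleotide pools and 28.1, 24.5 and 34.8 CPM in control pools. It was lower within all 3 pairs, like 3649 of all 13336 tested genes, and passed in neither fit (log2 fold change -0.26 ± 0.167 SE, edgeR adjusted p = 0.528, and 0.0589 with the block). Another gene of the structure list, zwi, went the other way and is also named after its values were seen. It had 37.4, 41.1 and 48.9 CPM in nucleotide pools and 34.1, 39.6 and 37.4 CPM in control pools, higher within all 3 pairs, and passed in neither fit.

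In the oligodendrocyte lineage list 1 of 37 tested genes rose without the block, beside 125 of all 13336. That gene was hdac1, a histone deacetylase that zebrafish need to form oligodendrocytes and that acts in most dividing cells. It had 222, 229 and 247 CPM in nucleotide pools and 153, 154 and 161 CPM in control pools (0.58 ± 0.0925 SE on the log2 scale, edgeR adjusted p = 0.0328). With the block 4 genes of the list rose and 3 fell, 18.9% against 19.1% of all tested genes. Library totals with the block gave 1 rise and 9 falls, where 5.14% of all tested genes rose and 21.7% fell. DESeq2 with the block gave 3 rises and 0 falls, where 8.55% of all genes rose and 4.93% fell. Among the 7 were sox8a, for a factor of the same SoxE group as sox10, at 0.40 (edgeR adjusted p = 0.0312), tcf7l2 at 0.30 (0.0118) and mycb at -0.65 (0.00405). The sox8a call was lost in both other blocked fits (adjusted p of 0.106 with library totals in edgeR and 0.116 in DESeq2), and that of mycb in DESeq2 (0.0700). That of tcf7l2 held in DESeq2 (0.0103) and was lost with library totals (edgeR adjusted p = 0.0735). The Schwann lineage list had 2 rises and 0 falls among 33 without the block, beside 125 and 7 among all 13336. The rises were sox2, a factor of neural stem cells and immature glia, at 0.59 ± 0.0824 (SE; edgeR adjusted p = 0.0166), and cdc42, a small GTPase found in nearly all cells, at 0.53 ± 0.0882 (edgeR adjusted p = 0.0372). With the block 5 of these 33 rose and 7 fell (36.4%, against 19.1% of all tested genes), while library totals gave 2 rises and 13 falls and DESeq2 3 rises and 2 falls. Among the 7 falls were lama2 and nadl1.1, at -0.29 and -0.29 (edgeR adjusted p of 0.0111 and 0.0157 with the block). Both calls held with library totals (edgeR adjusted p of 0.00216 and 0.00611) and in DESeq2 with the block (0.0274 and 0.0415).

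In the ErbB and neuregulin list 2 of 37 rose without the block and 0 fell, beside 125 and 7 of all 13336 tested genes. With the block 6 rose and 4 fell (27.0%, against 19.1% of all tested genes). Library totals with the block gave 2 rises and 7 falls, where 5.14% of all tested genes rose and 21.7% fell. DESeq2 with the block gave 4 rises and 2 falls, where 8.55% of all genes rose and 4.93% fell. Among the falls were errfi1 at -0.45 and gab1 at -0.31 (edgeR adjusted p of 0.00243 and 0.0115 with the block). Both calls held with library totals (edgeR adjusted p of 0.00169 and 0.00354) and in DESeq2 with the block (0.00153 and 0.0401). The 2 called without the block were map2k1, a kinase of the MAPK cascade below many receptors, at 0.64 ± 0.0838 (SE; edgeR adjusted p = 0.0123), and bace1, the protease that cleaves neuregulin and other membrane proteins, at 0.56 ± 0.0946 (edgeR adjusted p = 0.0411). For bace1 the levels were 46.2, 46.8 and 52.6 CPM in nucleotide pools and 32.7, 34.9 and 31.5 CPM in control pools. The calls of hdac1, cdc42 and bace1 were each lost with any 1 of the 6 libraries left out (edgeR adjusted p of up to 0.198, 0.213 and 0.213), at log2 fold changes of 0.54 to 0.62, 0.51 to 0.56 and 0.50 to 0.60. With the block and 1 pair left out all 3 genes passed, with edgeR adjusted p of at most 0.000871, 0.00139 and 0.00774. These fits held fewer libraries, yet some edgeR adjusted p were smaller than with all pairs (hdac1 1.35e-08 without pair 1, 0.000115 with all). Their size is thus no measure of strength. The call of map2k1 was lost without control pool 1 or 3 or nucleotide pool 1 or 2 (up to 0.0988), and that of sox2 without any library other than nucleotide pool 3 (at least 0.0743). With library totals hdac1, cdc42, bace1 and sox2 had edgeR adjusted p of 0.0856, 0.106, 0.0949 and 0.0911. Of 26 genes for myelin lipids 0 passed without the block (0 in DESeq2). Under an unadjusted edgeR p of 0.05 lay 3, beside 14.5% of all tested genes. With the block 2 rose and 1 fell (11.5%, against 19.1% of all tested genes). Library totals gave 0 rises and 5 falls, beside the same 5.14% and 21.7%, and DESeq2 with the block 1 rise and 0 falls.

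**Figure D4:**
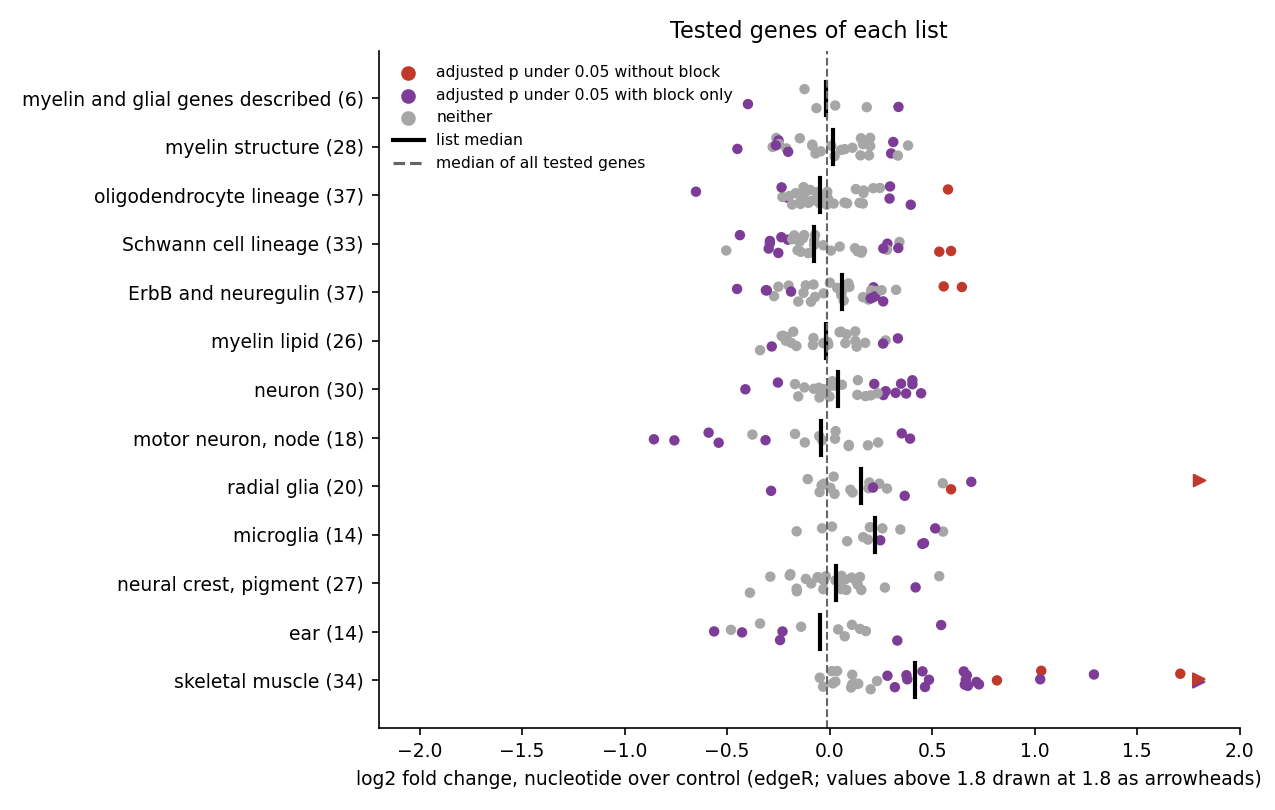
Log2 fold change (nucleotide over control, edgeR without the block) of each tested gene, by list, with the number tested in brackets; red points passed an adjusted p of 0.05 without the block, purple points with the block only, black bars are list medians and the dashed line is the median of all tested genes. Medians of the myelin, oligodendrocyte and Schwann lists lie between -0.08 and 0.02, and that of the skeletal muscle list at 0.42.

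Cells that surround or resemble myelinating glia were followed with marker lists. Of 30 neuronal markers 0 passed without the block. Under an unadjusted edgeR p of 0.05 lay 9 (7 higher and 2 lower), beside 14.5% of all tested genes. DESeq2 called 4 higher, beside 398 of all 13037 genes with an adjusted p. With the block 9 rose and 2 fell (36.7%, against 19.1% of all tested genes). DESeq2 with the block gave the same counts, beside 8.55% of all genes higher and 4.93% lower. Library totals gave 5 rises and 6 falls, beside 5.14% and 21.7%. Their summed level was 4764 to 5242 CPM in nucleotide pools and 4566 to 4670 CPM in control pools, without overlap, whereas their share of all counts overlapped, at 0.476% to 0.488% in nucleotide pools and 0.474% to 0.490% in control pools. Relative to the summed counts of the neuronal list in each library, mpz stood at -0.51 and plp1a at 0.21 on the log2 scale, nucleotide minus control. The other members were at -0.23 (olig2), -0.17 (erbb3b), -0.16 (sox10), -0.09 (mag) and 0.06 (plp1b). In edgeR with library totals and no block, mpz and plp1a were at -0.53 and 0.21, close to these values. Of 18 markers of motor neurons and axonal nodes 0 passed without the block. Under an unadjusted edgeR p of 0.05 lay 6 (2 higher and 4 lower), beside the same 14.5%. DESeq2 called 1 lower, beside 96 of all 13037. With the block 2 rose and 5 fell (38.9%, against 19.1% of all tested genes), against 2 and 8 with library totals and 2 and 2 in DESeq2. Their summed levels were 798 to 908 CPM in nucleotide pools and 794 to 947 CPM in control pools. Motor neurons share the olig2-expressing precursor. Of this list isl2a was at -0.59 on the log2 scale with the block (edgeR adjusted p = 0.000198, and 0.0764 without the block), against -0.11 for olig2 (0.558 with the block). With the block slc18a3a also fell (-0.31, edgeR adjusted p = 0.00503), and the 2 rises were scn1lab (0.39, 0.00138) and scn8ab (0.36, 0.00549). Each of these list calls held in both other blocked fits. Whether isl2a came from motor neurons alone in the whole animal was not tested.

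Neural crest and pigment cell markers, the other site of sox10 and erbb3b, had 0 calls among 27 without the block (0 in DESeq2). Under an unadjusted edgeR p of 0.05 lay 0 of them, beside 14.5% of all tested genes. With the block there was 1 rise and 0 falls (3.7%, against 19.1% of all tested genes), against 0 and 3 with library totals and 0 and 0 in DESeq2. Over all genes library totals with the block called 5.14% higher and 21.7% lower, and DESeq2 with the block 8.55% and 4.93%. Their sums were 750 to 784 CPM in nucleotide pools and 734 to 788 CPM in control pools. Markers of radial glia summed to 2786 to 3763 CPM in nucleotide pools and 2665 to 3106 CPM in control pools. In the blocked fit 5 rose and 1 fell (30%, against 19.1% of all tested genes), against 4 and 1 with library totals and 4 and 0 in DESeq2. Without the block 2 of 20 rose, beside 125 of all 13336 tested genes. The 2 were sox2, already counted in the Schwann list, and cyp19a1b, for brain aromatase, an enzyme of oestrogen synthesis found in radial glia of fish, at 2.96 ± 0.262 on the log2 scale (SE; edgeR adjusted p = 0.00171). The cyp19a1b call held in all 17 alternatives. Microglia and ear markers, 14 tested in each list, had 0 calls without the block and overlapping sums. Under an unadjusted edgeR p of 0.05 lay 3 microglia markers, all higher, and 5 ear markers, all lower, beside 14.5% of all tested genes. DESeq2 called 1 and 0, beside 3.79% of all genes. With the block 4 microglia markers rose and 0 fell (28.6%, against 19.1% of all tested genes), against 2 and 1 with library totals and 4 and 0 in DESeq2. Of the ear markers 2 rose and 4 fell with the block (42.9%, against the same 19.1%), against 1 and 6 with library totals and 2 and 1 in DESeq2. Skeletal muscle markers differed most, with 4 of 34 rising without the block, beside 125 of all 13336 tested genes. With the block 21 rose (61.8%, against the same 19.1%), against 17 with library totals and 13 in DESeq2, and 0 fell in any of these fits. Muscle markers took 5.69% to 8.94% of counts in nucleotide pools and 4.54% to 5.55% in control pools. All genes of these marker lists that were in the table had counts in at least 1 library, apart from 1 gene of the neuronal list at 0 throughout. The myelin structure and Schwann lists also held 1 such gene each. The part of these markers in the values of the myelin genes was not tested.

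Library totals ran from 25792829 to 31556366 counts in nucleotide pools and from 18690465 to 23066970 in control pools. Over all tested genes 125 rose and 7 fell without the block, and 1432 rose and 1118 fell with it, so a call with the block is common in these data. Scaling the blocked fit by library totals instead of TMM gave 686 rises and 2889 falls.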

How the data were processed

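RNA of 6 pools of whole zebrafish embryos was sequenced on the Illumina platform. The authors deposited raw counts per gene and library in one table. The submitters' processing notes list TopHat2, HTSeq, DESeq2 and GRCz10 without saying what each did. The sources used here give no version, annotation, strand setting or rule for multiply matching reads. Reads shared by plp1a and plp1b, or by a gene and an overlapping or antisense one, may therefore be split unevenly. The deposited comparison holds, per the file headers, a mean signal per gene, a log2 fold change with its SE, a score headed stat, a p-value and an adjusted p, and was used only where named. No sequence was used.

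Of 14681 rows, 69 with a symbol and counts already listed were dropped. Counts were tested in R 4.3.3 with edgeR 4.0.16 (filterByExpr with minimum count 10 and minimum total 15, TMM, quasi-likelihood F test, 2-sided, Benjamini-Hochberg over 13336 genes, threshold 0.05). The filter left out erbb3b. SE is the size of the log2 fold change over the square root of F, and intervals use the fitted degrees of freedom. DESeq2 1.42.0, other scalings, no filter, a replicate block and left-out libraries were alternatives. The steps were also run on simulated counts with the same dispersion for every gene, whereas the fitted spread here differed between genes. No result here rests on that run.

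The arms share pool numbers 1 to 3, whose meaning the labels do not give. Deviations of log2 CPM from the arm means correlated at 0.573, 0.659 and 0.651 between same-numbered pools. Each being above 0.1, the numbers were treated as pairing the pools, a pairing read from the counts alone. Library names end in the same digit in both arms for pairs 2 and 3, and in different digits for pair 1. Nothing says that pools are separate clutches, and p-values measure only the spread between these samples, which may be technical.

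Members and lists were chosen with earlier results of these data known. Lists held 426 entries, and 331 matched a row through its symbol or NCBI gene number (RefSeq names of GRCz12tu). All members in the table are described, and from each list at most 4 genes with the smallest p, with or without the block, are named. Other genes are said to be named after their values were seen. A search for genes with a pattern like mbpa was not made, since that gene was not analysed here.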

Additional observations from a re-analysis of the deposited data

How the results depend on the processing

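The edgeR test with all 6 libraries and no replicate block called 132 genes, 0 of them members. DESeq2 called 494 genes, the replicate block 2550, DESeq2 with the block 1573 and the block with library totals 3575, the last 2 chosen after seeing the data. Members called were 1 higher and 1 lower with the block (plp1a and mpz), 0 and 0 with DESeq2 and the block, and 0 higher and 1 lower (mpz) with the block and library totals. Leaving out 1 library gave 39 to 80 genes and 0 members in either direction. With the block, leaving out 1 pair gave 1671, 2012 or 2135 genes, 0 to 1 member higher and 0 to 1 lower. The signs of plp1a, plp1b and mpz were the same in all 17 alternatives, from 0.21 to 0.43, 0.05 to 0.27 and -0.53 to -0.26. The sign of mag turned with library totals (-0.10, and -0.10 with the block), with 1 library left out (-0.029 to 0.069, below 0 without control pool 3 or nucleotide pool 3) and with the block without pair 3 (-0.065). That of sox10 turned with 1 library left out (-0.17 to 0.16, above 0 without control pool 1) and with the block without pair 1 (0.14), and that of olig2 with the block without pair 1 (0.047). The cause was not tested for calls gained or lost, other than that fewer samples enter where libraries are left out. The block changed the call of no other member. With 26 to 30 counts an arm, the change of erbb3b was estimated loosely, and the cause of its low counts was not tested.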
